A study of Mus musculus with 15 samples.

Results

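Regions at gene ends are accessible stretches of chromatin whose midpoint lies within 1 kb of the start or end coordinate of a protein-coding gene. They were taken from a table of ATAC-seq regions of mouse liver cells. ATAC-seq cuts and tags open DNA with a transposase, so that reads pile up where chromatin is accessible. A region counted as a gene-end region if it was nuclear, narrower than 5000 bp, and had its midpoint within 1000 bp of either coordinate of a RefSeq protein-coding gene on the mouse build mm10. This rule uses position alone and no measured value. It found 12913 of 93215 nuclear regions (13.9%), which belong to 12711 of 21887 protein-coding genes (58.1%).

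The start of a gene is its promoter, where RNA polymerase II and general transcription factors assemble, and active promoters are among the most accessible sites of the genome. Most promoters of broadly used genes lie in CpG islands, stretches rich in the dinucleotide CG that stay unmethylated and open in nearly every cell type. Promoters poor in CG belong more often to tissue-specific genes and rely on enhancers and cell-type factors. The 3′ end of a gene has no general need for open chromatin. In the liver, hepatocytes carry out metabolism and secretion, and biliary cells (cholangiocytes) line the bile ducts. Under bile duct injury hepatocytes can take on biliary features, which is called reprogramming.

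The study set out to profile chromatin of hepatocytes, reprogrammed hepatocytes and biliary cells, in 15 libraries that form 5 groups of 3. DDC reprogrammed hepatocytes, DDC biliary cells and DDC hepatocytes came from mice given DDC (diethoxycarbonyl-dihydrocollidine, a diet additive that injures bile ducts). Untreated biliary cells and untreated hepatocytes came from mice without DDC. Per the labels, all cells were sorted from liver with no culture and no treatment after sorting. The labels give no strain, age, sort marker, length of DDC feeding, or means of telling reprogrammed hepatocytes from the rest. They do not state that replicates are separate animals. The p-values thus cover the spread among libraries only, which may be technical. In sorted pools, fewer open cells and less open DNA per cell cannot be told apart.

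Depth differed between the groups. Nuclear reads in regions ran from 4756891 to 9829886 in DDC reprogrammed hepatocytes, from 5151190 to 10395918 in DDC biliary cells, from 1191409 to 2342643 in DDC hepatocytes, from 2439831 to 4389653 in untreated biliary cells, and from 201705 to 605309 in untreated hepatocytes. Mitochondrial reads made up 4.69 to 14.8% of reads in DDC reprogrammed hepatocytes, 7.99 to 12.9% in DDC biliary cells, 29.1 to 42.4% in DDC hepatocytes, 13.7 to 21.9% in untreated biliary cells and 63.1 to 84.2% in untreated hepatocytes. Levels are therefore given as nuclear RPM, reads in a region per 1000000 nuclear reads in regions. In untreated hepatocytes 17.9 to 31.8% of gene-end regions had no read, against 0.364 to 9.79% in the other 12 libraries, and 1 read there is worth 1.65 to 4.96 RPM. DDC reprogrammed library 2 stood apart from the other 2 of its group in its share of reads at gene ends (below), and values without it are given where they differ.

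The labels were checked against cell markers at gene ends. Alb, Apoa1, Ttr, Krt19 and Sox9 have no gene-end region, so 5 of 10 hepatocyte and biliary markers could be read. The Cps1 region (carbamoyl-phosphate synthase, urea cycle) had 1.42, 1.32 and 6.31 RPM in DDC reprogrammed hepatocytes, 0.577, 2.14 and 1.86 in DDC biliary cells, 16.2, 16.3 and 16.8 in DDC hepatocytes, 3.78, 1.64 and 1.37 in untreated biliary cells and 19.8, 11.6 and 34.1 in untreated hepatocytes. The Spp1 5′ region (osteopontin, a secreted duct protein) had 15.6, 20.7 and 16.2 RPM in DDC reprogrammed hepatocytes, 27.8, 30.1 and 29.2 in DDC biliary cells, 6.83, 3.83 and 8.39 in DDC hepatocytes, 40.05, 55.3 and 41.01 in untreated biliary cells and 9.92, 9.91 and 8.52 in untreated hepatocytes. Cps1 was highest in both hepatocyte groups and Spp1 in both biliary groups, with reprogrammed hepatocytes close to biliary cells for Cps1 and between the types for Spp1. The 5′ region of Hnf4a, the master regulator of hepatocytes, was at 25.5, 22.8 and 23.8 RPM in DDC reprogrammed hepatocytes, 22.4, 28.5 and 25.4 in DDC biliary cells, 21.8, 17.7 and 22.7 in DDC hepatocytes, 22.7, 18.03 and 18.7 in untreated biliary cells and 29.7, 18.2 and 8.52 in untreated hepatocytes. It did not separate the cell types. The Epcam region, at the gene of a biliary adhesion molecule, had 2.52, 0.916 and 0 RPM in DDC reprogrammed hepatocytes, 4.42, 6.21 and 2.05 in DDC biliary cells, 0.427, 0.958 and 1.68 in DDC hepatocytes, 2.27, 0.82 and 2.28 in untreated biliary cells and 0, 0 and 8.52 in untreated hepatocytes. This Epcam region, nearest the 3′ end, too did not separate biliary cells from hepatocytes without DDC (log2 change 0.34 ± 0.75 in untreated biliary cells, adjusted p = 0.762). Epcam has no region at its 5′ end, so its promoter could not be read. Krt7, the other marker with a region, is described with the biliary genes below. Of other cell types, the 2 endothelial regions summed to 0 to 19.8 RPM, the 5 stellate cell and fibroblast regions to 25.7 to 100.2 RPM, and the 1 macrophage region to 0 to 0.877 RPM except for 38.3 in untreated hepatocyte library 3. No lymphocyte marker had a gene-end region.

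Promoter sequences of 6 genes show the kinds of gene end compared below. Each runs 5′ to 3′ on the gene's strand over 300 bases, from 250 bases before the annotated start to 50 after it, and is credited to RefSeq (build GRCm38.p6, which is mm10). Capitals mark CG dinucleotides. Khsrp (an RNA-binding splicing regulator; chr17:57031458-57031757, minus strand) is a CpG-rich promoter among the 10 most accessible gene ends. Ptpn14 (a tyrosine phosphatase that restrains YAP; chr1:189728018-189728317, plus strand) is a CpG-rich promoter that was higher in biliary and reprogrammed cells. Arhgef38 (a guanine nucleotide exchange factor; chr3:133234900-133235199, minus strand) is CpG-poor and was higher in biliary cells. Abcb11 (the bile salt export pump; chr2:69342567-69342866, minus strand), Agxt (alanine-glyoxylate aminotransferase; chr1:93134990-93135289, plus strand) and Dnase2b (an acid DNase; chr3:146615549-146615848, minus strand) are CpG-poor and were lower in biliary or reprogrammed cells.
Khsrp: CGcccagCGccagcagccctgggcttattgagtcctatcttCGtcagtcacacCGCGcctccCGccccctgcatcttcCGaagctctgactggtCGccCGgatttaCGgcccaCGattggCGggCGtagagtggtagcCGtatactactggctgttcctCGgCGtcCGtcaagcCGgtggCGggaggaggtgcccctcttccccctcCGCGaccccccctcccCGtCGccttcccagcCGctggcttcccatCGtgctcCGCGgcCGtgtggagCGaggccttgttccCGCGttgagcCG
Ptpn14: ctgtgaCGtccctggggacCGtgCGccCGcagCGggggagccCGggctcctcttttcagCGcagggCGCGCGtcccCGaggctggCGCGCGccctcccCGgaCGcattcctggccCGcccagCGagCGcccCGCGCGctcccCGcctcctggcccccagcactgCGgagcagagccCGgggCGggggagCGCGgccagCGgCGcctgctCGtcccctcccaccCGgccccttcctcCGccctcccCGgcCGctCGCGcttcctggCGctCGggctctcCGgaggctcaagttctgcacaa
Arhgef38: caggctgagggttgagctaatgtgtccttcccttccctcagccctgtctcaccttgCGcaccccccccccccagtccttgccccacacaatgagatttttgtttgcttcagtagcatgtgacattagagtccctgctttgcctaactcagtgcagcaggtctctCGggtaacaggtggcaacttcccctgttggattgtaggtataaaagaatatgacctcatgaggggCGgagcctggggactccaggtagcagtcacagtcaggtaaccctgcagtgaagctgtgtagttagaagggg
Abcb11: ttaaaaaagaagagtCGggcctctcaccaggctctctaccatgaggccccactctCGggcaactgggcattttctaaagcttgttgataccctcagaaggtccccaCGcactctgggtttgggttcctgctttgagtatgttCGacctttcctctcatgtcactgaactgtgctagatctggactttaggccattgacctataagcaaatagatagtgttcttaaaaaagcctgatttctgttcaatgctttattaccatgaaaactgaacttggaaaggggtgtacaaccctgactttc
Agxt: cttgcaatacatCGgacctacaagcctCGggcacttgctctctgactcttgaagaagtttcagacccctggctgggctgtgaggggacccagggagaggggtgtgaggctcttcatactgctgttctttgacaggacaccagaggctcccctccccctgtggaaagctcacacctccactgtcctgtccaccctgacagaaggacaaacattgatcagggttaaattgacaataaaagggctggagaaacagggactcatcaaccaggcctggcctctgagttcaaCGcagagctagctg
Dnase2b: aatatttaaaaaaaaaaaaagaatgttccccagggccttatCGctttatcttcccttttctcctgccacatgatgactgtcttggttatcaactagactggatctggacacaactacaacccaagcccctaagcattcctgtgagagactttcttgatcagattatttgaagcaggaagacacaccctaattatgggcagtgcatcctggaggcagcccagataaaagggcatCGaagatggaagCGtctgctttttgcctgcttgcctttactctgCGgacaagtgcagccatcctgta
The Khsrp and Ptpn14 promoters hold 32 and 40 CG sites at 68.0 and 78.3% G and C. The Arhgef38, Abcb11, Agxt and Dnase2b promoters hold 3, 4, 3 and 4 sites at 54.0, 45.3, 54.3 and 45.0%. Letters of 12 motifs were searched on both strands. TATAAA (the TATA box) is in the Arhgef38 promoter, CCAAT (the CCAAT box) in that of Khsrp, GGGCGG (SP1) in those of Khsrp, Ptpn14 and Arhgef38, and GGAATG (TEAD) in those of Ptpn14 and Dnase2b. The Abcb11 and Agxt promoters hold none of the 12.

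Most gene-end regions marked gene starts. Strand was known for 17492 genes. On that basis 8497 regions were nearest a 5′ end and 1753 nearest a 3′ end (82.9% nearest a 5′ end), while for 2663 the strand was not given. The midpoint lay a median of 297 bp from the coordinate. Most regions, 11328, touched the ends of 1 gene, 1554 those of 2 and 31 those of 3 or more, with 7 at most. A set of 792 regions held the 5′ ends of 2 or more different genes, a layout that includes bidirectional promoters.

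Gene-end regions were wider and more accessible per length than other regions. Their median width was 1530 bp, against 631 bp for the other regions under 5 kb, and their median level per length was 12.4 RPM per kb, against 4.47. The excess lay at 5′ ends, with a median of 15.8 RPM per kb, and 24.1 where 5′ ends of several genes met. Regions nearest a 3′ end had a median of 4.03 RPM per kb, beside 4.34 inside genes and 4.53 between genes. Reads were present in all 15 libraries at 65.8% of 5′ regions, 86.2% of regions with several 5′ ends and 16.9% of 3′ regions. Of 977 regions with a mean above 100 RPM, 492 were gene ends.

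The level per kb was lower in each further distance bin up to 5000 bp from a gene end in all 5 groups, and changed little beyond. Within 250 bp of an end it was 22.1 ± 2.42 RPM per kb in DDC reprogrammed hepatocytes, 20.7 ± 0.139 in DDC biliary cells, 20.04 ± 0.379 in DDC hepatocytes, 23.9 ± 1.28 in untreated biliary cells and 19.1 ± 0.525 in untreated hepatocytes (mean ± SD, n = 3 each). Beyond 50000 bp it was 6.34 ± 0.740 in DDC reprogrammed hepatocytes, 6.87 ± 0.0668 in DDC biliary cells, 6.54 ± 0.260 in DDC hepatocytes, 6.10 ± 0.174 in untreated biliary cells and 7.59 ± 0.423 in untreated hepatocytes. Untreated biliary cells thus had the highest mean next to genes and the lowest mean far from them. At the limit of the rule the change was gradual. The 564 regions with midpoints 900 to 1000 bp from an end had group medians of 7.74 RPM per region in DDC reprogrammed hepatocytes, 7.50 in DDC biliary cells, 7.21 in DDC hepatocytes, 6.77 in untreated biliary cells and 6.14 in untreated hepatocytes. The 510 just outside, at 1000 to 1100 bp, had medians of 7.58 RPM in DDC reprogrammed hepatocytes, 7.15 in DDC biliary cells, 7.30 in DDC hepatocytes, 6.19 in untreated biliary cells and 7.40 in untreated hepatocytes. At the limit of width, the 107 gene-end regions of 4500 to 5000 bp had medians of 57.2 to 69.1 RPM and the 60 of 5000 to 5500 bp 57.3 to 69.5 RPM.

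**Figure D1:**
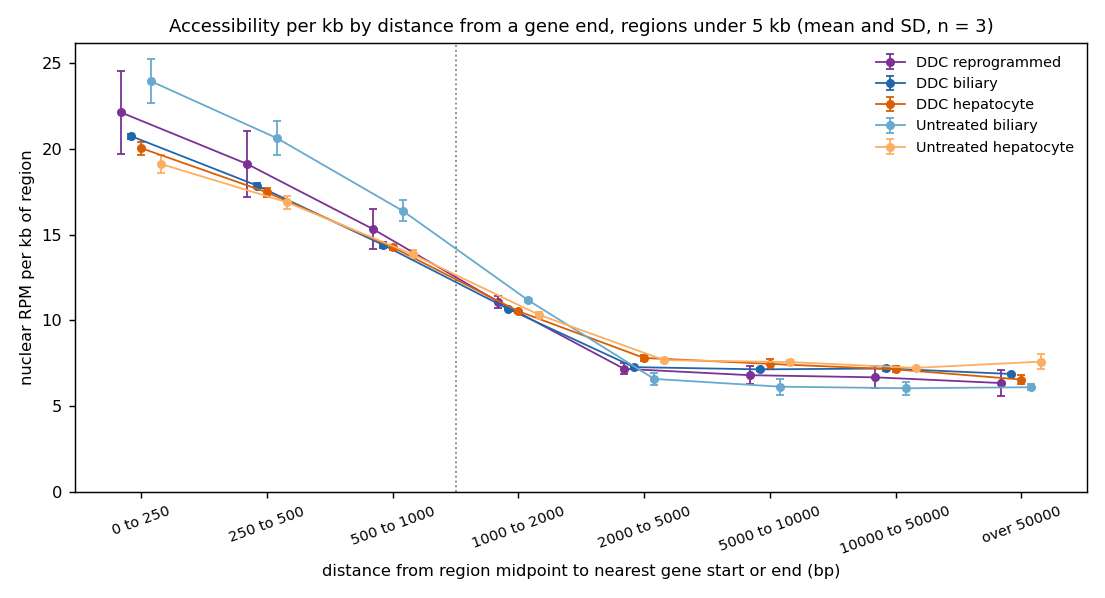
Mean nuclear RPM per kb of region (y axis) against the distance from a region's midpoint to the nearest gene start or end (x axis, bins in bp) for regions under 5 kb; points are group means and bars SD over 3 libraries, and the dotted line marks 1000 bp. All 5 groups fall with distance up to 5000 bp and run nearly level beyond, and untreated biliary cells run highest within 250 bp (23.9) and lowest beyond 50000 bp (6.10).

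The 10 gene-end regions of highest mean RPM, which also reflects their width, were those of Gm20783, Zbtb20, Sp4, Gsk3b, Khsrp, Mon1b, Fam76b (which shares its region with Cep57), Pja2, Suco and Rap2b. Gm20783 (chr9:124422472-124426214, 3′ end), a predicted gene, had 302, 377 and 313 RPM in DDC reprogrammed hepatocytes, 318, 336 and 336 in DDC biliary cells, 294, 234 and 219.9 in DDC hepatocytes, 309.8, 377 and 395 in untreated biliary cells and 208, 185 and 229.9 in untreated hepatocytes. Its region also holds an end of another predicted gene, so the reads cannot be assigned to either. Zbtb20 (chr16:42874543-42877010, 5′ end), a zinc finger repressor of alpha-fetoprotein in liver, had 244, 254 and 276 RPM in DDC reprogrammed hepatocytes, 271, 263 and 272 in DDC biliary cells, 268, 206 and 271 in DDC hepatocytes, 359.7, 439 and 461 in untreated biliary cells and 149, 188 and 247 in untreated hepatocytes. Gsk3b (chr16:38087022-38090983, 5′ end), the glycogen synthase kinase, had 242, 321 and 263 RPM in DDC reprogrammed hepatocytes, 252, 249 and 269.6 in DDC biliary cells, 229, 215 and 213 in DDC hepatocytes, 303, 362 and 348 in untreated biliary cells and 169, 182 and 170.3 in untreated hepatocytes. For Zbtb20 and Gsk3b the 3 untreated biliary libraries were above every untreated hepatocyte and every DDC biliary library. Suco (chr1:161875482-161877760, 5′ end), an endoplasmic reticulum protein, had 149, 179 and 179.9 RPM in DDC reprogrammed hepatocytes, 159.7, 164 and 163 in DDC biliary cells, 178, 174 and 217 in DDC hepatocytes, 238, 296 and 279.5 in untreated biliary cells and 208, 276 and 281 in untreated hepatocytes. There untreated biliary cells and untreated hepatocytes overlapped.

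The share of nuclear reads that fell in gene-end regions was highest in untreated biliary cells. It was 38.6, 45.4 and 38.4% in DDC reprogrammed hepatocytes, 37.9, 38.4 and 38.4% in DDC biliary cells, 37.2, 36.8 and 37.9% in DDC hepatocytes, 41.7, 44.5 and 45.8% in untreated biliary cells, and 35.2, 35.6 and 36.8% in untreated hepatocytes. Untreated biliary libraries did not overlap DDC biliary or untreated hepatocyte libraries. The difference was 8.09 points between untreated biliary cells and untreated hepatocytes and -5.73 points between DDC and untreated biliary cells. It was 3.50 points between DDC reprogrammed hepatocytes and DDC hepatocytes, also without overlap, and only 1.19 without reprogrammed library 2. Each of these 3 gave p = 0.1 in the two-sided exact permutation test, the smallest that 3 against 3 libraries can give, and 0.167 adjusted over 5 comparisons. Between DDC and untreated hepatocytes (1.42 points) and between DDC reprogrammed hepatocytes and DDC biliary cells (2.57 points, 0.250 without reprogrammed library 2) the libraries overlapped, with p = 0.2 in the exact permutation test.

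The DDC differences thus had opposite signs in biliary cells and hepatocytes, with overlapping libraries in the hepatocytes, and that contrast could be tested on its own. The DDC difference in hepatocytes minus that in biliary cells was 7.15 points, with p = 0.01 over all 400 exact rearrangements of treatment within cell type. The mitochondrial share and the depth differed along the same comparisons (above), and their part in this result was not tested.

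Most of the difference lay at 5′ ends. Regions nearest a 5′ end took 31.9 ± 3.40% of nuclear reads in DDC reprogrammed hepatocytes, 29.9 ± 0.247% in DDC biliary cells, 28.9 ± 0.401% in DDC hepatocytes, 34.5 ± 1.74% in untreated biliary cells and 27.6 ± 0.608% in untreated hepatocytes (SD, n = 3 each). Without reprogrammed library 2 the mean of DDC reprogrammed hepatocytes was 29.97%, which is 1.12 points above DDC hepatocytes, against 3.09 with it, and 0.0878 above DDC biliary cells, against 2.05. Regions nearest a 3′ end ran the other way. They took 1.12 ± 0.0573% in DDC reprogrammed hepatocytes, 1.13 ± 0.0111% in DDC biliary cells, 1.31 ± 0.0399% in DDC hepatocytes, 1.07 ± 0.0820% in untreated biliary cells and 1.28 ± 0.0408% in untreated hepatocytes. DDC reprogrammed hepatocytes lay below DDC hepatocytes, and untreated biliary cells below untreated hepatocytes, with no overlap of libraries (p = 0.1 each, exact permutation test).

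**Figure D2:**
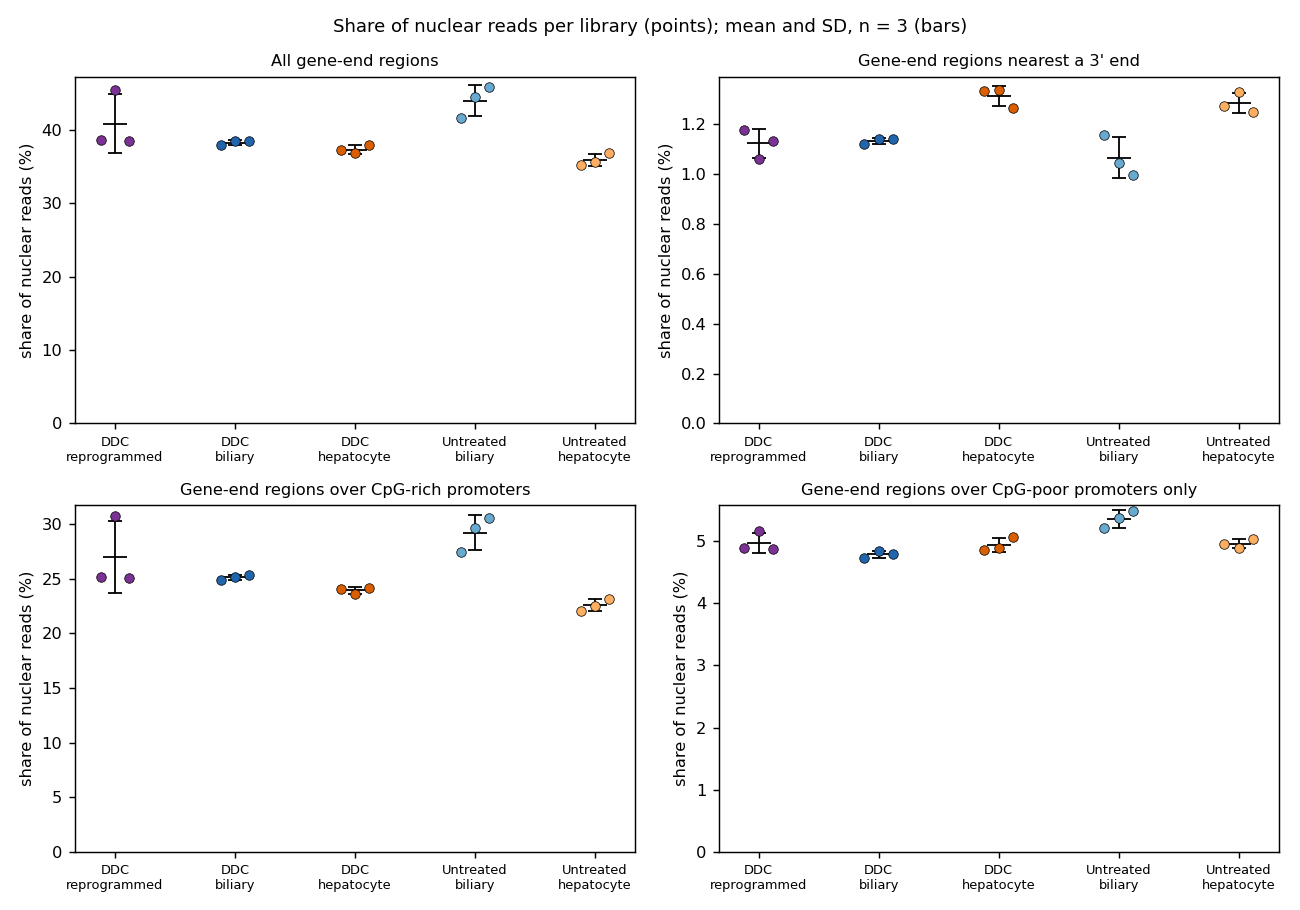
Share of nuclear reads (y axis, percent) in all gene-end regions, in those nearest a 3′ end, and in those over CpG-rich or only CpG-poor promoters, for the 5 groups (x axis); points are libraries, long bars means and short bars SD (n = 3). Untreated biliary libraries sit at 41.7 to 45.8% for all gene ends, and 1 of 3 DDC reprogrammed libraries (45.4%) stands apart from the other 2 of its group.

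Promoter composition split the 5′ regions further. A promoter was called CpG-rich when its 300 bases held at least 0.6 of the CG count expected from base composition and at least 50% G and C, a rule chosen after the data had been seen. CpG-rich promoters lay in 5704 regions and only CpG-poor promoters in 2258, with median levels of 19.7 and 9.97 RPM per kb. The CpG-rich regions took 25.2, 30.8 and 25.0% of nuclear reads in DDC reprogrammed hepatocytes, 24.9, 25.2 and 25.3% in DDC biliary cells, 24.1, 23.6 and 24.2% in DDC hepatocytes, 27.4, 29.7 and 30.6% in untreated biliary cells, and 22.1, 22.6 and 23.2% in untreated hepatocytes. DDC hepatocytes were above untreated hepatocytes in every library here, by 1.35 points, and DDC biliary cells below untreated ones, by 4.09 points. DDC reprogrammed hepatocytes exceeded DDC hepatocytes by 3.05 points (1.17 without library 2). The shares of CpG-poor regions had means of 4.98 ± 0.161% in DDC reprogrammed hepatocytes, 4.79 ± 0.0555% in DDC biliary cells, 4.94 ± 0.111% in DDC hepatocytes, 5.36 ± 0.141% in untreated biliary cells and 4.96 ± 0.0741% in untreated hepatocytes, again highest in untreated biliary cells.

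Of the 12913 gene-end regions, 12240 (94.8%) had a mean of at least 1 RPM and entered the tests, against 83.2% of other regions. Each test compared log2(nuclear RPM + 1) by limma over all 79075 such regions. A change is given as log2 ± SE with its Benjamini-Hochberg adjusted p, and a region rose or fell when that p was under 0.05. Adding 1 can understate the log2 changes of regions with few reads. Changes that rest on libraries without a read can also be larger by limma than by edgeR. Counts from edgeR quasi-likelihood tests on the reads, scaled by TMM factors or by library totals alone, are given beside those of limma. In DDC against untreated hepatocytes limma and edgeR with TMM gave log2 changes of 4.97 and 9.97 at the Cacna1h region, but 4.10 and 2.83 at that of F2rl1.

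DDC reprogrammed hepatocytes differed from DDC hepatocytes at fewer gene ends than at other regions. By limma 577 gene-end regions rose (4.71%) and 313 fell (2.56%), against 8.14% and 6.06% of all tested regions. By edgeR with library totals 1653 rose (13.5%) and 766 fell (6.26%), against 15.8% and 14.6%. By edgeR with TMM 2028 rose and 600 fell, against 18.4% and 13.4%. All 3 reprogrammed libraries were above all 3 DDC hepatocyte libraries at 25.0% of gene ends and below at 9.50%, where all regions gave 24.7% and 19.1%. The limma total of 890 dropped to 230 without reprogrammed library 1, 275 without reprogrammed library 2, 407 without DDC hepatocyte library 2 and 571 without DDC hepatocyte library 3. The falls were rare at 5′ ends (1.64%) and more frequent at 3′ ends (7.15%), beside 6.70% of other regions.

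At matched level 5′ regions were still called less often than other regions, in each level class of the 2 comparisons plotted. This did not hold throughout the comparisons with untreated hepatocytes. At 1 to 5 RPM limma called 35% of 5′ and 24.4% of other regions for untreated biliary cells, and 13.7 and 11.1% for DDC hepatocytes. At 20 to 50 RPM it called 33.2 and 51%, and 9.92 and 13.9%. In DDC reprogrammed hepatocytes against DDC hepatocytes, among regions of 20 to 50 RPM, limma called 5.06% of 5′ regions, 15.7% of 3′ regions and 23.1% of other regions under 5 kb. By edgeR with library totals the shares were 18, 41.7 and 46.9%. In the comparison of DDC with untreated biliary cells, limma called 0.438, 1.74 and 4.47% and edgeR 6.61, 13 and 23.1% at that level. The gap was narrower above 100 RPM, where limma called 10.1% of 5′ regions and 13.5% of other regions there, and edgeR 33 and 35.9%. Regions nearest a 3′ end were not consistently below other regions in that comparison, with 4.55 against 4.52% by limma at 10 to 20 RPM and 9.52 against 3.24% at 50 to 100 RPM, the last on 21 regions. Without matching for level, CpG-poor promoters were called more often than CpG-rich ones in DDC reprogrammed hepatocytes against DDC hepatocytes, at 10.2% (131 higher, 99 lower) against 4.24% (225 higher, 17 lower) by limma, and at 25.0 against 15.6% by edgeR with library totals. The 2 classes differed in level, with medians of 14.8 RPM for CpG-poor and 37.8 RPM for CpG-rich regions. The part of level in this difference was not tested.

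**Figure D3:**
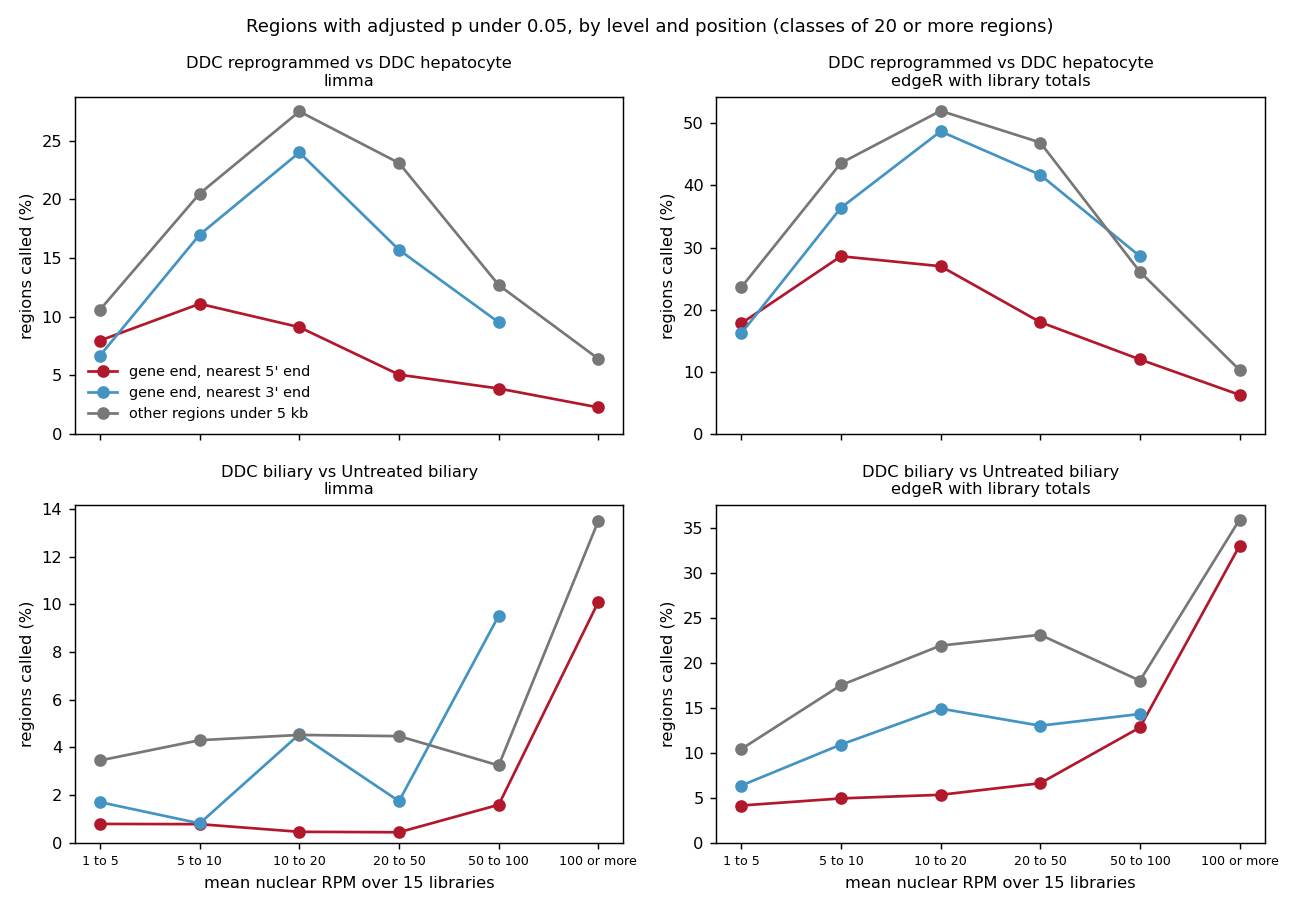
Percent of regions with an adjusted p under 0.05 (y axis) by mean nuclear RPM over the 15 libraries (x axis) for regions nearest a 5′ end, nearest a 3′ end and other regions under 5 kb, in 2 comparisons by limma (left) and edgeR with library totals (right). At 20 to 50 RPM, limma called 5.06% of 5′ regions and 23.1% of other regions in DDC reprogrammed hepatocytes against DDC hepatocytes.

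The gene ends that rose most in DDC reprogrammed hepatocytes also had reads in DDC biliary cells, at 13.6 RPM or more in every library of all 6 regions. Foxj1 (chr11:116328966-116330569), a regulator of motile cilia, had 23.2, 11.5 and 15.6 RPM in DDC reprogrammed hepatocytes, against 0, 0.958 and 0 RPM in DDC hepatocytes (log2 change 3.77 ± 0.57, adjusted p = 0.00197). Ptpn14 (chr1:189727040-189730690, 5′ end), whose CpG-rich promoter is shown above, had 94.9, 106 and 77.2 RPM, against 8.54, 8.62 and 5.04 RPM in DDC hepatocytes (log2 change 3.50 ± 0.63, adjusted p = 0.00407). Igsf9b (chr9:27298505-27300943), a cell adhesion protein, had 30.5, 31.3 and 25.6 RPM, against 4.27, 0.958 and 1.68 RPM in DDC hepatocytes (log2 change 3.31 ± 0.47, adjusted p = 0.00162). In all 3 regions every reprogrammed library was above every DDC hepatocyte library, and Ptpn14 overlapped DDC biliary cells (102, 109 and 86.2 RPM). Gfpt2 (chr11:49792837-49795325, 5′ end), of the hexosamine pathway, had 17.1, 18.7 and 19.8 RPM in DDC reprogrammed hepatocytes, against 3.41, 0 and 0 RPM in DDC hepatocytes (log2 change 3.57 ± 0.82, adjusted p = 0.0113). H2-M2 (chr17:37483225-37484105, 5′ end), a nonclassical class I histocompatibility gene, had 17.4, 18.2 and 21.02 RPM, against 4.27, 0 and 0 RPM in DDC hepatocytes (log2 change 3.51 ± 0.57, adjusted p = 0.00258). Tspear (chr10:77685641-77686905) rose too, with 18.6, 15.5 and 18.5 RPM, against 0.427, 0 and 3.36 RPM in DDC hepatocytes (log2 change 3.33 ± 0.52, adjusted p = 0.00227), and lay below DDC biliary cells (44.7, 35.9 and 40.4 RPM).

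The gene ends that fell most in DDC reprogrammed hepatocytes included genes of liver metabolism. Cyp7a1 (chr4:6264270-6267978), the rate-limiting enzyme of bile acid synthesis, had 2.52, 1.83 and 3.99 RPM in DDC reprogrammed hepatocytes, against 33.3, 46.4 and 36.9 RPM in DDC hepatocytes (log2 change -3.43 ± 0.77, adjusted p = 0.0103). Gys2 (chr6:142472638-142473455), the liver glycogen synthase, had 3.18, 2.44 and 7.99 RPM, against 51.7, 43.1 and 40.3 RPM in DDC hepatocytes (log2 change -3.18 ± 0.56, adjusted p = 0.00358). Dnase2b (chr3:146614639-146618795, 5′ end), whose CpG-poor promoter is shown above, had 1.75, 1.63 and 12.8 RPM, against 31.2, 45.97 and 94.8 RPM in DDC hepatocytes (log2 change -3.50 ± 0.62, adjusted p = 0.00357). The groups did not overlap in any of the 3, and reprogrammed library 3 was the highest of its group each time. Timd2 (chr11:46706089-46707386, 5′ end), of the T cell immunoglobulin and mucin domain family, had 2.19, 1.42 and 5.47 RPM in DDC reprogrammed hepatocytes, against 32.02, 32.6 and 35.3 RPM in DDC hepatocytes (log2 change -3.22 ± 0.46, adjusted p = 0.00166). The 3′ regions of Cobl (chr11:12236307-12236835), an actin nucleator, and Eri2 (chr7:119783113-119783956, 3′ end), an exonuclease, also fell, with log2 changes of -3.48 ± 0.54, adjusted p = 0.00226, and -3.31 ± 1.02, adjusted p = 0.0417.

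**Figure D4:**
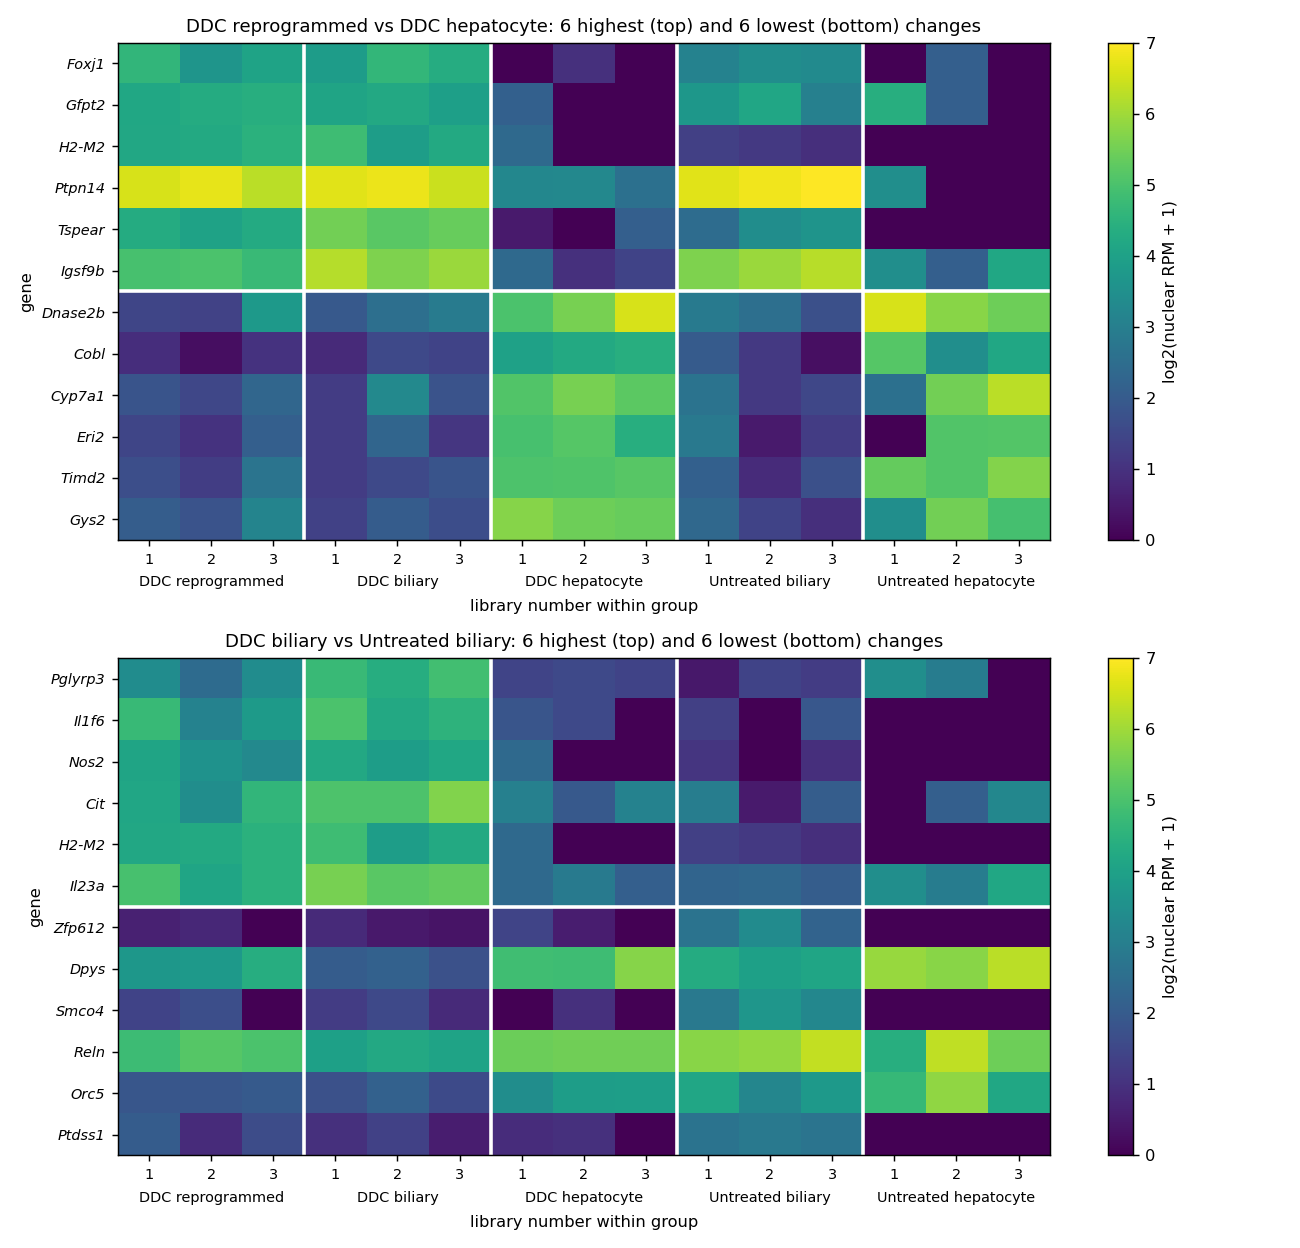
Accessibility, as log2(nuclear RPM + 1), of the gene-end regions with the 6 highest and 6 lowest changes in DDC reprogrammed hepatocytes against DDC hepatocytes (upper) and in DDC biliary cells against untreated biliary cells (lower); rows are genes, columns the 15 libraries. Ptpn14 is at 77.2 RPM or more in all reprogrammed and biliary libraries and at 9.92 RPM or less in all hepatocyte libraries.

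The hepatocyte function list had the most falls in DDC reprogrammed hepatocytes. Of 26 tested regions at genes of hepatocyte function, 0 rose and 12 fell by limma, and 0 rose and 21 fell by edgeR with library totals. Their median log2 change was -1.67, against 0.21 over all gene ends. Their summed level was 296, 289 and 420.0 RPM in DDC reprogrammed hepatocytes, 189, 268 and 226 in DDC biliary cells, 820.0, 876 and 779 in DDC hepatocytes, 433, 347 and 337 in untreated biliary cells and 808, 943 and 869 in untreated hepatocytes. All 3 reprogrammed libraries lay well below both hepatocyte groups. Cyp2e1 (chr7:140763402-140764479, 5′ end), a cytochrome P450 of pericentral hepatocytes, had 0.986, 1.32 and 1.68 RPM in DDC reprogrammed hepatocytes, against 20.9, 23.5 and 9.23 RPM in DDC hepatocytes (log2 change -2.93 ± 0.62, adjusted p = 0.00766). Of 12 regions at hepatocyte transcription factors 3 fell and 0 rose, among them Nr1i3 (chr1:171212999-171215020, 5′ end), the receptor CAR (log2 change -2.42 ± 0.64, adjusted p = 0.0211), and the 3′ region of Rxra (chr2:27761846-27765800), the retinoid X receptor alpha (log2 change -1.97 ± 0.47, adjusted p = 0.0130).

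Biliary gene ends had more rises than falls. Of 18 tested regions 5 rose and 1 fell by limma, and 7 rose and 1 fell by edgeR with library totals, with a median log2 change of 0.65. This median is near those of the 8 neuronal regions taken as a control (0.69) and of the 2 endothelial regions (0.80), so it does not set the biliary list apart. The biliary sum was 368, 336 and 332 RPM in DDC reprogrammed hepatocytes, 508, 498 and 501 in DDC biliary cells, 191, 234 and 230.0 in DDC hepatocytes, 444, 478 and 502 in untreated biliary cells and 268, 173 and 281 in untreated hepatocytes, so reprogrammed libraries lay between the 2 cell types. Krt7 (chr15:101410507-101413795, 5′ end), a duct keratin, had 23.2, 14.4 and 15.1 RPM at its 5′ end in DDC reprogrammed hepatocytes, against 1.71, 0.958 and 1.68 RPM in DDC hepatocytes (log2 change 2.91 ± 0.70, adjusted p = 0.0136). Grhl2 (chr15:37232068-37234948), an epithelial transcription factor, had 24.8, 20.8 and 23.1 RPM, against 3.84, 2.87 and 3.36 RPM in DDC hepatocytes (log2 change 2.46 ± 0.40, adjusted p = 0.00258), while DDC biliary cells had 63.97, 66.00 and 71.3 RPM. Pkhd1 (chr1:20058030-20058694, 3′ end), which encodes fibrocystin of duct cilia, was the member that fell, at its 3′ end, with 3.07, 1.83 and 3.15 RPM, against 5.12, 12.9 and 20.1 RPM in DDC hepatocytes (log2 change -1.75 ± 0.53, adjusted p = 0.0395).

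Inflammation and chemokine gene ends rose at 3 of 10 regions in DDC reprogrammed hepatocytes and fell at 0, with a median log2 change of 1.04. Over all 12240 tested gene ends 577 rose, and the median was 0.21. The neuronal control, with 2 rises at 8 regions and 0 falls, had a median of 0.69, and the 2 endothelial regions had 0.80. These few regions do not set the inflammation list clearly apart from the control. Ccl20 (chr1:83119719-83120414, 3′ end), a chemokine for lymphocytes and dendritic cells, had 2.30, 2.65 and 5.47 RPM at its 3′ end and no read in the 3 DDC hepatocyte libraries, which makes it at least 5.77-fold higher against a floor of 3 reads over that group. Folds of this kind divide the pooled level of the other group by that floor, and leave out the counting error of the pooled level. The Il23a (chr10:128296795-128299011) region, at the gene for a subunit of interleukin 23, had 30.3, 16.5 and 21.2 RPM, against 4.27, 6.22 and 3.36 RPM in DDC hepatocytes (log2 change 2.06 ± 0.40, adjusted p = 0.00562). Of the lists without a link to a liver cell type, neuronal, cell cycle and housekeeping regions were called at 2 of 8, 2 of 20 and 2 of 20, and ribosomal protein regions least. Among 80 ribosomal protein regions limma called 0, while edgeR called 6 higher with TMM and 3 with library totals. Of 20 cell cycle regions 1 rose (Mcm2 (chr6:88898127-88899243, 5′ end), a replicative helicase subunit, log2 change 0.94 ± 0.28, adjusted p = 0.0389) and 1 fell (Ccnd1 (chr7:144927326-144930542), cyclin D1, log2 change -1.25 ± 0.36, adjusted p = 0.0289). Of 20 housekeeping regions 1 rose and 1 fell, both at Gusb. The 8 neuronal regions, taken as a control, had 2 rises, at Camk2a and at Syt1 (chr10:109010353-109012061, 5′ end), a synaptic vesicle protein (10.3, 12.8 and 6.52 RPM, against 0.854, 1.92 and 4.20 RPM in DDC hepatocytes; log2 change 1.80 ± 0.45, adjusted p = 0.0164).

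**Figure D5:**
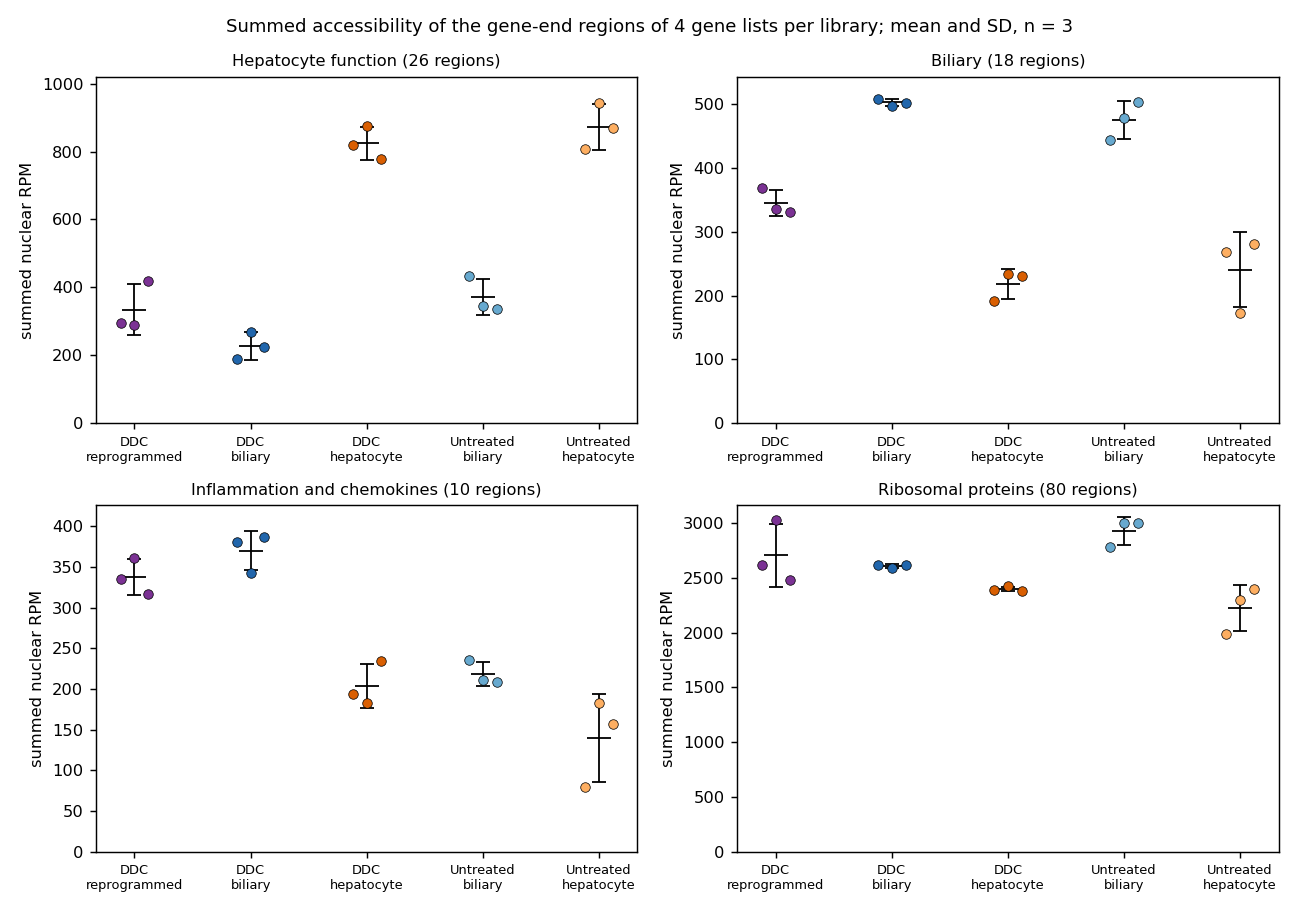
Summed nuclear RPM (y axis) of the tested gene-end regions of 4 gene lists in the 5 groups (x axis); points are libraries, long bars means and short bars SD (n = 3). Hepatocyte function genes are at 778.9 RPM or more in both hepatocyte groups and at 433 or less elsewhere, while biliary genes run highest in both biliary groups.

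Gene ends called in DDC biliary cells against untreated biliary cells were few by limma, and their split between rises and falls depended on the fit. By limma 72 gene-end regions rose (0.588%) and 104 fell (0.85%), against 2.92% and 0.545% of all tested regions. By edgeR with library totals 357 rose and 755 fell, against 9.9% and 3.5%. By edgeR with TMM 327 rose and 521 fell, against 9.82% and 3.49%. The 3 DDC biliary libraries were all below the 3 untreated ones at 25.0% of tested gene ends and all above at 11.5%, where all regions gave 13.6% and 21.8%. The limma total of 176 fell to 5 without DDC biliary library 1, 64 without library 2, 15 without library 3, 37 without untreated biliary library 2 and 24 without library 3. Rises were then as many as falls or more without DDC biliary library 1 (4 and 1), DDC biliary library 2 (34 and 30), untreated biliary library 2 (21 and 16) and untreated biliary library 3 (12 and 12). They also outnumbered falls with TMM factors in the limma fit (96 and 65) and with the deposited scaling (308 and 37). With only these 2 groups in the fit, 663 rose and 1722 fell. CpG-rich promoters made up 3 of the rises and 64 of the falls by limma, CpG-poor ones 17 and 14.

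The gene ends that rose most in DDC biliary cells included genes of immune defence. Il23a had 46.3, 36.3 and 38.7 RPM in DDC biliary cells, against 3.78, 4.10 and 3.19 RPM in untreated biliary cells (log2 change 3.14 ± 0.40, adjusted p = 0.00261). Nos2 (chr11:78919837-78921217), the inducible nitric oxide synthase, had 17.7, 13.8 and 17.00 RPM, against 1.13, 0 and 0.911 RPM in untreated biliary cells (log2 change 3.42 ± 0.59, adjusted p = 0.00718). Il1f6 (chr2:24214506-24215844), which encodes interleukin 36 alpha, had 31.5, 17.9 and 21.99 RPM, against 1.51, 0 and 2.73 RPM in untreated biliary cells (log2 change 3.52 ± 0.61, adjusted p = 0.00748). The groups lay far apart in each of these, and the 3 regions were open in DDC reprogrammed hepatocytes too, where Nos2 had 16.00, 10.8 and 8.83 RPM. Pglyrp3 (chr3:92032679-92034551), a peptidoglycan recognition protein, had 25.8, 19.6 and 28.2 RPM in DDC biliary cells, against 0.378, 1.64 and 1.37 RPM in untreated biliary cells (log2 change 3.62 ± 0.69, adjusted p = 0.0111). H2-M2 and the 3′ region of Cit (chr5:116007865-116010607), a kinase of cell division, rose too, with log2 changes of 3.18 ± 0.57, adjusted p = 0.00870, and 3.41 ± 0.74, adjusted p = 0.0199. Of 10 inflammation regions 3 rose by limma and 5 by edgeR with library totals, 0 fell, and their sum was 381, 343 and 387 RPM in DDC biliary cells, against 236, 211 and 209 RPM in untreated ones.

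The gene ends that fell most in DDC biliary cells were a mixed set. Reln (chr5:22343541-22346036, 5′ end), the secreted protein reelin, had 14.7, 17.7 and 15.8 RPM at its 5′ end in DDC biliary cells, against 53.3, 57.4 and 80.9 RPM in untreated biliary cells (log2 change -1.91 ± 0.36, adjusted p = 0.0111). Reln is on the stellate cell list, and its region is part of the sum of the 5 regions there. That sum was 25.7, 31.3 and 26.97 RPM in DDC biliary cells, against 69.5, 80.3 and 100.2 RPM in untreated ones. The Reln region was the only 1 of the 5 that limma called. The part of other cells in this fall was not tested. Dpys (chr15:39855148-39857896), an enzyme of pyrimidine breakdown, had 3.08, 3.49 and 2.35 RPM, against 18.9, 14.8 and 16.2 RPM in untreated biliary cells (log2 change -2.15 ± 0.35, adjusted p = 0.00578). Orc5 (chr5:22485931-22487241, 3′ end), a subunit of the origin recognition complex, had 2.31, 3.49 and 1.95 RPM at its 3′ end, against 16.6, 8.20 and 12.8 RPM (log2 change -1.89 ± 0.46, adjusted p = 0.0332) in untreated biliary cells. Zfp612 (chr8:110092006-110092535), Smco4 (chr9:15467287-15467958, 5′ end) and Ptdss1 (chr13:66997425-66998123) were below 12 RPM in every biliary library and fell, with log2 changes of -2.19 ± 0.44, adjusted p = 0.0141, -2.04 ± 0.49, adjusted p = 0.0315, and -1.76 ± 0.43, adjusted p = 0.0346. The 5′ region of Fah (chr7:84603011-84607198), of tyrosine breakdown, had 80.9, 96.1 and 112 RPM in DDC biliary cells, against 170.4, 188 and 177 RPM in untreated biliary cells (log2 change -0.89 ± 0.16, adjusted p = 0.00867).

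Promoter composition was compared for regions called the same way by limma and edgeR with TMM. In DDC reprogrammed hepatocytes against DDC hepatocytes these were 573 rises and 295 falls at gene ends, against 8.06% and 5.92% of all regions. In DDC against untreated biliary cells they were 72 rises and 97 falls, against 2.91% and 0.524%. In untreated biliary cells against untreated hepatocytes they were 3058 higher and 301 lower regions, against 15% and 6.08%. CpG-rich promoters made up 7003 of 9923 (70.6%) at tested gene ends and 9600 of 21263 (45.1%) in the whole RefSeq table. They were 258 of 414 (62.3%) at gene ends that rose in DDC reprogrammed hepatocytes against DDC hepatocytes, and 16 of 119 (13.4%) at those that fell. In DDC against untreated biliary cells they were 5 of 27 (18.5%) where regions rose and 72 of 88 (81.8%) where they fell. In untreated biliary cells against untreated hepatocytes they were 2218 of 2895 (76.6%) where regions were higher and 18 of 125 (14.4%) where they were lower. Motif letters were searched on both strands of the 300 bases. The AP-1 letters TGANTCA were in 9 of the 27 promoters that rose in DDC biliary cells (33.3%), in 465 of 9923 at tested gene ends (4.69%) and in 6.99% of all promoters. The TATA box TATAAA was in 8 of those 27 (29.6%), against 6.53% at tested gene ends and 12.6% of all promoters. The HNF1 letters TTAATNATT were in 6 of 119 promoters that fell in DDC reprogrammed hepatocytes (5.04%), against 0.756% at tested gene ends and 1.34% of all promoters. No one of these motifs contains another, the 27 promoters belong to 21 genes, and a match describes letters, not binding.

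Untreated biliary cells and untreated hepatocytes differed mostly in the direction of higher values in biliary cells. By limma 3513 regions were higher in untreated biliary cells (28.7%) and 751 lower (6.14%), against 22.1% and 10.9% of all regions. By edgeR with library totals 1985 were higher and 737 lower, against 8.54% and 12%. By edgeR with TMM 5671 were higher and 362 lower, against 20.9% and 7.62%. Untreated biliary libraries were all above at 30.8% of gene ends and all below at 7.50%, where all regions gave 24.3% and 11.5%. With TMM factors in the limma fit 95.9% of the calls were higher, against 82.4% with library totals, and the median change of all regions moved to 0.80, against 0.39. The low depth of untreated hepatocytes moves with this comparison and its part was not tested. Thinning each library to 201705 reads, with only these groups in the fit, left 282 calls, 206 higher and 76 lower.

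The gene ends highest in untreated biliary cells relative to untreated hepatocytes included epithelial and signalling genes. Arhgef38 (chr3:133233806-133235655, 5′ end), whose CpG-poor promoter is shown above, had 86.1, 103 and 115 RPM in untreated biliary cells and no read in untreated hepatocytes, at least 36.1-fold higher against a floor of 3 reads over the group. Macc1 (chr12:119389884-119391060, 5′ end), a regulator of MET signalling in human tumours, had 72.5, 106 and 133 RPM, against 0, 3.30 and 0 RPM in untreated hepatocytes (log2 change 5.97 ± 0.53, adjusted p = 3.84e-06). Ptpn14 had 103, 115 and 136 RPM, against 9.92, 0 and 0 RPM in untreated hepatocytes (log2 change 5.74 ± 0.63, adjusted p = 2.05e-05). Untreated biliary libraries were above 70 RPM in these 3 regions, while at most 1 of 3 untreated hepatocyte libraries had any read. Kif12 (chr4:63170129-63172912, 5′ end), a kinesin motor, had 88.4, 98.8 and 96.6 RPM in untreated biliary cells, against 0, 0 and 8.52 RPM in untreated hepatocytes (log2 change 5.49 ± 0.65, adjusted p = 3.29e-05). F2rl1 (chr13:95523463-95526099), protease-activated receptor 2, had 85.01, 119.7 and 115 RPM, against 0, 16.5 and 0 RPM in untreated hepatocytes (log2 change 5.36 ± 0.73, adjusted p = 9.57e-05), but DDC hepatocytes had 55.5, 29.7 and 50.4 RPM there. Dpysl4 (chr7:139085541-139088324) had 35.5, 55.7 and 42.1 RPM and no read in untreated hepatocytes, at least 15.2-fold higher.

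Those lowest in untreated biliary cells included genes of liver metabolism. Abcb11 (chr2:69341991-69343095, 5′ end), the bile salt export pump, had 5.29, 2.46 and 1.37 RPM in untreated biliary cells, against 49.6, 44.6 and 34.1 RPM in untreated hepatocytes (log2 change -3.54 ± 0.49, adjusted p = 1.11e-04). Agxt (chr1:93134870-93136496, 5′ end), which detoxifies glyoxylate, had 8.31, 1.64 and 0 RPM, against 39.7, 34.7 and 51.1 RPM in untreated hepatocytes (log2 change -3.86 ± 0.63, adjusted p = 3.38e-04). Angptl4 (chr17:33773752-33775877), an inhibitor of lipoprotein lipase, had 4.91, 2.05 and 0.456 RPM, against 49.6, 75.99 and 51.1 RPM in untreated hepatocytes (log2 change -4.31 ± 0.76, adjusted p = 5.54e-04). No untreated biliary library reached the lowest untreated hepatocyte library in these 3 regions. Ppp1r3g (chr13:35959448-35960162, 5′ end), a glycogen-targeting phosphatase subunit, was lower too (log2 change -3.96 ± 0.66, adjusted p = 3.77e-04). The 3′ regions of Retreg2 (chr1:75147532-75149048) and Nudt7 (chr8:114154812-114155480) had log2 changes of -4.14 ± 0.65, adjusted p = 2.39e-04, and -3.85 ± 0.62, adjusted p = 3.00e-04. Of 26 hepatocyte function regions 14 were lower and 0 higher in untreated biliary cells, with a median of -1.74, against 0.56 over all gene ends. F9 (chrX:59999065-60000560, 5′ end), coagulation factor IX, had 4.91, 0 and 3.64 RPM, against 29.7, 21.5 and 29.8 RPM in untreated hepatocytes (log2 change -3.20 ± 0.56, adjusted p = 5.42e-04). Of 12 hepatocyte transcription factor regions 4 were lower and 2 higher, led by the 3′ region of Nr5a2 (chr1:136842083-136842848), the receptor LRH-1 (log2 change -3.03 ± 0.58, adjusted p = 9.70e-04). Of 18 biliary regions 10 were higher and 1 lower, led by Ehf (chr2:103301910-103304968), an epithelial ETS factor, with 26.4, 27.1 and 24.6 RPM, against 0, 3.30 and 0 RPM in untreated hepatocytes (log2 change 4.05 ± 0.49, adjusted p = 3.87e-05). Of 10 inflammation regions 5 were higher and 1 lower, and of 80 ribosomal protein regions 18 were higher and 1 lower (45 and 0 by edgeR with TMM, 11 and 0 with library totals). Over all 12240 tested gene ends limma called 3513 higher and 751 lower, and over all regions 22.1% and 10.9%. The median log2 changes were 0.76 for biliary, 1.38 for inflammation and 0.52 for ribosomal protein regions. The ribosomal protein regions were thus not set apart from the 0.56 of all gene ends.

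DDC and untreated hepatocytes gave calls at gene ends that depended strongly on the fit. By limma 1174 of 12240 gene ends rose with DDC and 272 fell, shares close to the 9.94% and 2.2% of all regions. By edgeR with library totals 133 rose and 77 fell, against 0.913% and 0.556%. By edgeR with TMM 1671 rose and 19 fell, against 6.52% and 0.445%. Calls shared by limma and edgeR with TMM were 741 rises and 15 falls, against 3.98% and 0.257%. With only these 2 groups in the limma fit the count was 0, with or without thinning of reads. DDC hepatocyte libraries were all above at 14.2% of gene ends and all below at 4.85%, where all regions gave 13.4% and 4.87%. The limma total of 1446 became 687 without DDC hepatocyte library 1, 830 without DDC hepatocyte library 2, 3132 without untreated hepatocyte library 2 and 2254 without untreated hepatocyte library 3.

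The leading gene ends of DDC hepatocytes passed limma and both edgeR fits, and many rest on untreated hepatocytes without a read. Cacna1h (chr17:25372372-25374384), a T-type calcium channel, had 32.9, 21.1 and 40.3 RPM in DDC hepatocytes and no read in untreated hepatocytes, at least 10.4-fold higher against a floor of 3 reads over the group. Scd1 (chr19:44393153-44395082), the stearoyl-CoA desaturase of fat synthesis, had 19.2, 27.3 and 35.3 RPM in DDC hepatocytes and no read in untreated ones, at least 8.89-fold higher. Olfr94, an olfactory receptor, was at least 6.12-fold higher by the same measure. Osbpl3 (chr6:50454516-50456662, 5′ end), an oxysterol-binding protein, had 45.2, 39.3 and 41.97 RPM in DDC hepatocytes, against 0, 13.2 and 0 RPM in untreated hepatocytes (log2 change 4.15 ± 0.68, adjusted p = 0.00122), and 39.3 RPM or more in all 12 other libraries. Bco1 (chr8:117093843-117096424, 5′ end), a carotenoid oxygenase, had 28.6, 18.2 and 26.02 RPM in DDC hepatocytes, against 0, 1.65 and 0 RPM in untreated hepatocytes (log2 change 4.17 ± 0.47, adjusted p = 1.16e-04).

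Falls in DDC hepatocytes were led by Fgl1 (chr8:41217767-41218363), a secreted liver protein, with no read in DDC hepatocytes, against 9.92, 28.1 and 38.3 RPM in untreated hepatocytes. With a floor of 3 reads over DDC hepatocytes it was 50.4-fold lower, on 28 reads in untreated hepatocytes. The 5′ region of Aars2 (chr17:45502367-45503988), the mitochondrial alanyl-tRNA synthetase, had no read in DDC hepatocytes, against 9.92, 9.91 and 8.52 RPM in untreated hepatocytes, at least 17.99-fold lower, and 11.6, 5.49 and 8.20 RPM in DDC reprogrammed hepatocytes. Elovl3 (chr19:46131499-46132728), a fatty acid elongase, had 0.427, 1.92 and 3.36 RPM in DDC hepatocytes, against 19.8, 24.8 and 17.03 RPM in untreated hepatocytes (log2 change -3.02 ± 0.51, adjusted p = 0.00160). The 3 regions had no overlap between DDC and untreated hepatocytes. Cadm3 (chr1:173367061-173367893), and the 3′ regions of Tmem229a (chr6:24950777-24951137) and Nudt7, fell, with log2 changes of -3.26 ± 0.63, adjusted p = 0.00351, -4.19 ± 0.65, adjusted p = 7.99e-04, and -3.54 ± 0.62, adjusted p = 0.00194. Of the 26 hepatocyte function regions 1 fell, at Arg1 (chr10:24926621-24928390), the arginase of the urea cycle, with 17.5, 14.8 and 18.5 RPM in DDC hepatocytes, against 69.4, 57.8 and 59.6 RPM in untreated ones (log2 change -1.82 ± 0.42, adjusted p = 0.0105), and 1 rose, at the 3′ end of Ambp. Neither passed edgeR with TMM (adjusted p = 0.0595 and 0.108), which called 1 other region of the list higher and 0 lower. With library totals edgeR called 0 of the list higher and 1 lower. Of 18 biliary regions 1 rose by limma, at Ehf (log2 change 2.29 ± 0.49, adjusted p = 0.00647, and adjusted p = 0.292 by edgeR with library totals). By edgeR 1 biliary region rose with TMM and 0 with library totals.

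DDC reprogrammed hepatocytes and DDC biliary cells were not separated at any gene end by limma over 15 libraries (0 of 12240, and 0% of all regions). An unadjusted limma p under 0.05 was found at 340 gene ends (2.78%), a smaller share than the 5.45% of all regions. By edgeR 117 were higher and 90 lower with TMM, against 1.04% and 1.75% of all regions, and 102 and 81 with library totals, against 0.807% and 1.42%. The reprogrammed libraries were all above at 13.2% of gene ends and all below at 5.99%, where all regions gave 11.4% and 12.7%. In the limma fit of these 2 groups alone 218 were higher and 230 lower. Both edgeR scalings called 98 higher and 79 lower in DDC reprogrammed hepatocytes, and the regions named here are among the 6 of largest fold in each direction, a choice made after its values were seen.

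The gene ends named as higher in DDC reprogrammed hepatocytes had few reads in DDC biliary cells, as a choice by largest fold favours. The region at Ddx23 (chr15:98644960-98645905) and Cacnb3 had 15.6, 25.4 and 18.5 RPM in DDC reprogrammed hepatocytes, against 4.04, 2.91 and 3.22 RPM in DDC biliary cells (log2 change 2.57, adjusted p = 1.77e-05, edgeR with TMM), and 28.6, 25.4 and 22.7 RPM in DDC hepatocytes. The 3′ region of Spatc1l (chr10:76569845-76570753) had 4.49, 2.75 and 6.94 RPM, against 0.481, 0.388 and 1.07 RPM in DDC biliary cells (log2 change 2.72, adjusted p = 0.00473), and that of Wdr81 (chr11:75441460-75442324, 3′ end) had 8.22, 7.22 and 5.05 RPM, against 0.385, 0.777 and 0.586 RPM in DDC biliary cells (log2 change 3.59, adjusted p = 8.02e-04). Of the hepatocyte function regions 3 were higher by edgeR with TMM and 0 lower, with a limma median of 0.50, against 0.10 over all gene ends.

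The gene ends named as lower in DDC reprogrammed hepatocytes than in DDC biliary cells, chosen the same way, had few reads in the reprogrammed libraries. Lrfn4 (chr19:4614690-4616347, 5′ end), a synaptic adhesion-like protein, had 2.74, 1.63 and 6.52 RPM in DDC reprogrammed hepatocytes, against 18.3, 24.5 and 27.1 RPM in DDC biliary cells (log2 change -2.76, adjusted p = 1.19e-05, edgeR with TMM). Il17re (chr6:113458331-113459445, 5′ end), a receptor subunit for interleukin 17C, had 1.32, 1.63 and 2.10 RPM, against 10.5, 9.32 and 12.5 RPM in DDC biliary cells (log2 change -2.66, adjusted p = 5.48e-04). Ankrd22 (chr19:34165753-34166280, 5′ end) had 2.30, 1.83 and 1.47 RPM, against 13.5, 12.04 and 12.6 RPM in DDC biliary cells (log2 change -2.69, adjusted p = 7.89e-04). At Lrfn4 and Ankrd22 the reprogrammed libraries overlapped DDC hepatocytes, where Lrfn4 had 1.28, 4.31 and 5.88 RPM. The 5′ region of Rptn (chr3:93393169-93393756), a skin barrier protein, and the 3′ regions of Anln (chr9:22330361-22330598), of cell division, and Hcrtr1 (chr4:130130630-130131434, 3′ end), an orexin receptor, were below 7 RPM in every library and had log2 changes of -2.86, adjusted p = 0.0196, -3.16, adjusted p = 0.0332, and -3.07, adjusted p = 0.0154. Of 18 biliary regions 1 was lower by edgeR with TMM and 0 higher, with a limma median of -0.43.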

How the data were processed

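ATAC-seq was measured in 15 libraries, 5 groups of 3 taken from the sample titles. The titles and the extraction protocol name ATAC-seq and DNA, while other record fields say transcriptomic and total RNA. The values were read as ATAC-seq. Alignment, peak calling and counting used Bowtie2, SAMtools, MACS2 and bedtools on mm10, per the submitters' processing notes, which give no versions or roles. The authors deposited 1 table of 93217 regions with values per 1000000 reads (RPM), which they name TPM. The columns sum to 1000000 with no term for region length, so they were treated as RPM, a unit other than the one planned for, with the planned test. Whole reads were recovered as each value over its column's smallest step, and all values up to 100 reads were whole within 0.02.

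Columns were rescaled without the mitochondrial regions. Gene coordinates and strand came from RefSeq tables of GRCm38.p6. The main test was limma 3.58.1 (trend) in R 4.3.3 on log2(nuclear RPM + 1), all 15 libraries in 1 fit without covariates, over regions of mean RPM of at least 1, with Benjamini-Hochberg adjustment over all of them. The quasi-likelihood test of edgeR 4.0.16 was run on nuclear reads with TMM, and library totals as an alternative added after the data had been seen, as were joint calls of limma and edgeR. Shares were compared by two-sided exact permutation tests. Python 3.11.15 with pandas 2.3.3 and scipy 1.17.1 did the rest. The scripts were tested on simulated data. Counting precision follows depth, from 201705 to 10395918 nuclear reads a library.

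Named regions were, per comparison, the 6 highest and 6 lowest log2 changes among gene-end regions called the same way by limma and edgeR with TMM whose libraries did not overlap, the 10 of highest mean RPM, up to 4 members a list, and set markers; some are not reported here. The members and lists were chosen with earlier results of these data known. Regions were named by the nearest gene end, which need not be the gene they act on. Alternatives were the added constant, filter, scaling, window, width, test, groups in the fit, thinned reads, replicate block and each library left out.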

Additional observations from a re-analysis of the deposited data

Results flagged for a closer look

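The difference between the DDC effects in hepatocytes and in biliary cells was tested directly, as an interaction. For the share of nuclear reads at gene ends it was 7.15 points, with p = 0.01 over 400 exact rearrangements. For single regions, limma called the interaction at 286 of 12240 gene-end regions and at 1860 of all 79075 tested regions (2.35%). The share at gene ends was thus close to that over all regions. Among the 286 gene-end regions, 17 are described here. Of these, 11 were chosen for a large DDC change in one of the 2 cell types. All 17 rest on untreated hepatocytes at 201705 to 605309 nuclear reads, and the part of depth was not tested.

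Among regions that rose with DDC in hepatocytes, the difference was positive at Cacna1h (difference of log2 changes 4.38 ± 0.60, SE, adjusted p = 0.00398), Scd1 (5.36 ± 0.69, adjusted p = 0.00276), Olfr94 (4.37 ± 0.57, adjusted p = 0.00285), Bco1 (3.05 ± 0.67, adjusted p = 0.0287), Osbpl3 (4.28 ± 0.96, adjusted p = 0.0315) and F2rl1 (4.55 ± 1.03, adjusted p = 0.0329). Scd1 had a log2 change of 4.78 in hepatocytes and -0.58 in biliary cells. Zfp612 differed by 2.86 ± 0.63 (adjusted p = 0.0284), with 0.67 in hepatocytes and -2.19 in biliary cells. Smaller positive differences were at Zbtb20 (1.01 ± 0.21, adjusted p = 0.0241), Gsk3b (0.73 ± 0.14, adjusted p = 0.0177), Khsrp (0.68 ± 0.16, adjusted p = 0.0373), Fah (1.05 ± 0.23, adjusted p = 0.0266) and the region shared by Card6 and Rpl37 (1.67 ± 0.25, adjusted p = 0.00595).

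The difference was negative at Tmem229a (-4.01 ± 0.91, adjusted p = 0.0334), Nudt7 (-3.72 ± 0.88, adjusted p = 0.0375) and Aars2 (-5.16 ± 0.58, adjusted p = 0.00101), which fell with DDC in hepatocytes. It was also negative at Pglyrp3 (-4.28 ± 0.98, adjusted p = 0.0335) and Il23a (-4.20 ± 0.57, adjusted p = 0.00367), which rose with DDC in biliary cells. Il23a had a log2 change of -1.06 in hepatocytes and 3.14 in biliary cells.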

How the results depend on the processing

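The direction of all 5 share differences held under each alternative run (window, width, filter, mitochondrial reads in the total, block, each library left out), and no comparison can pass adjustment at 3 against 3. With mitochondrial reads in the total the sizes changed: 27.4 points, against 8.09, for untreated biliary cells against untreated hepatocytes, 16.2, against 1.42, for DDC against untreated hepatocytes, -1.34 (exact p = 0.9), against -5.73, for DDC against untreated biliary cells, and 12.6, against 3.50, for DDC reprogrammed hepatocytes against DDC hepatocytes. Counts of called gene ends also moved, as did the share called over all tested regions, given below in the same order. Untreated biliary cells against untreated hepatocytes gave 4264 calls, 10066 with the deposited scaling, 7611 with TMM factors, 2722 by edgeR with library totals, 1600 with only the compared groups, 282 thinned, and 2971 to 5253 with 1 library left out. Over all regions the shares were 33.0, 58.1, 42.2, 20.5, 17.5, 4.34 and 24.6 to 41.0%. DDC against untreated hepatocytes gave 1446, 8941 with the deposited scaling, 3895 with TMM factors, 210 by edgeR with library totals, 756 by limma and edgeR together, 0 with only the compared groups, 0 thinned, and 687 to 3132 with 1 library left out. Leaving out the joint calls, the shares of all regions were 12.1, 47.8, 21.4, 1.47, 0, 0 and 7.03 to 24.1%. DDC against untreated biliary cells gave 176, 307 with 5 added, 345 with the deposited scaling, 848 by edgeR with TMM, 1112 with library totals, 2385 with only the compared groups, 2058 thinned, 113 with a window of 500 bp, and 5 to 122 with 1 library left out. Leaving out the window, the shares of all regions were 3.47, 6.50, 12.3, 13.3, 13.4, 22.3, 19.1 and 0.157 to 2.11%. DDC reprogrammed hepatocytes against DDC hepatocytes gave 890, 3053 with the deposited scaling, 2628 by edgeR with TMM, 2419 with library totals, 2392 with only the compared groups, 1725 thinned, 564 with a window of 500 bp, and 230 to 659 with 1 library left out. Without the window, the shares of all regions were 14.2, 35.01, 31.9, 30.5, 32.1, 23.2 and 4.12 to 10.5%. DDC reprogrammed hepatocytes against DDC biliary cells gave 0, 10 with 5 added, 27 with the deposited scaling, 207 by edgeR with TMM, 183 with library totals, 448 with only the compared groups, 399 thinned, and 0 with any library left out. Here all regions gave 0, 0.157, 0.618, 2.79, 2.23, 7.53, 6.47 and 0%. The windows of 500 bp hold fewer members and thinned libraries fewer reads; the cause of the other moves was not tested.

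The deposited scaling, which keeps mitochondrial reads, and TMM shifted the split. Higher calls were 82.4% for untreated biliary cells against untreated hepatocytes, 99.2% with the deposited scaling and 95.9% with TMM. They were 81.2, 99.9 and 99.0% for DDC against untreated hepatocytes, 40.9, 89.3 and 59.6% for DDC against untreated biliary cells, and 64.8, 90.1 and 75.0% for DDC reprogrammed hepatocytes against DDC hepatocytes. TMM moved the median change of all regions in untreated biliary cells against untreated hepatocytes to 0.80, against 0.39, and in DDC against untreated hepatocytes to 0.65, against 0.32. For named regions 1783 alternative values kept direction and call, 294 lost the call, 10 gained it and 3 reversed, all 3 under the deposited scaling: Il23a (0.28) and Ccnd1 (0.69) in untreated biliary cells against untreated hepatocytes, and Hprt (0.23) in DDC against untreated hepatocytes.

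The deviations of same-numbered libraries from their group means had correlations from -0.108 to 0.209. For DDC reprogrammed hepatocytes against DDC biliary cells the correlations were 0.206, 0.0789 and 0.209. Differently numbered libraries were not taken as a reference, so these values cannot decide whether libraries are paired. With a replicate block the counts were 4250, 1365, 167, 814 and 0 in the order of comparisons above, and the shares had an exact p = 0.25. Depth limits the comparisons with untreated hepatocytes, where 10.9% of gene-end regions had no read in any of the 3 libraries.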

Other observations

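Gene ends that followed DDC in every cell type were few. All 9 DDC libraries lay above all 6 untreated libraries at 65 of 12240 tested gene ends (0.531%), against 1.14% of all tested regions, and below them at 49 (0.4%), against 0.228%. These regions were chosen for the pattern, so their values are a description. The region at Sprr1a, a squamous envelope protein, had 22.9 ± 3.54 RPM in DDC libraries and 3.29 ± 3.83 RPM in untreated ones (SD, n = 9 and 6). Ccl7, a monocyte chemokine, had 9.57 ± 3.79 RPM in DDC libraries and 1.02 ± 1.17 RPM in untreated ones. Fcgr4, an immunoglobulin receptor of myeloid cells, had 5.44 ± 1.43 RPM in DDC libraries and 0.349 ± 0.658 RPM in untreated ones. Iqgap3, a scaffold of proliferating cells, had 36.3 ± 9.53 RPM in DDC libraries and 6.59 ± 6.15 RPM in untreated ones. Slc13a3, a dicarboxylate transporter, had 24.1 ± 5.47 RPM in DDC libraries and 1.72 ± 1.99 RPM in untreated ones.

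Among the gene ends lower in all DDC libraries, Mgll, the monoglyceride lipase, had 5.87 ± 1.04 RPM in DDC libraries and 15.02 ± 5.67 RPM in untreated ones. Fam107b had 17.2 ± 5.57 RPM in DDC libraries and 39.0 ± 6.60 RPM in untreated ones. Dph6, of the diphthamide pathway, had 55.7 ± 8.45 RPM in DDC libraries and 120.2 ± 42.3 RPM in untreated ones. The DDC libraries hold 3 cell types and the untreated ones 2, so cell type and DDC are not balanced in this comparison.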
